A study of Mus musculus with 10 samples.

Results

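The distal portion of mouse chromosome 14, from 70 Mb to the end of the annotated genes, was examined across 9 RNA libraries of embryonic stem cells (ESC). Its members were chosen by position alone, as every feature on mm10 chromosome 14 that starts at or after 70 Mb, and then split into a stretch from 70 to 95 Mb, one from 95 to 119 Mb and one from 119 to 125 Mb. A feature is the annotated 3′ untranslated region of a transcript with 2 kb added downstream, so each value reports the RNA level at a transcript's 3′ end. The region held 320 of the 43031 features of the series. Features with the same coordinates were summed, which left 225 of 28730 distinct sites, and 149 genes with a symbol. The first stretch had 116 sites, the second 74 and the third 35. The region, its stretches and their borders were set with the contrasts of both lines against WT in view, so those contrasts are given below as descriptions.

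All ESC were C57BL/6 cells grown with fetal calf serum and leukemia inhibitory factor, on mitomycin C-treated mouse embryonic fibroblasts or on gelatin. WT cells were compared with DIDO3ΔE16, which lacks the DIDO3-specific exon 16 after SOX2-Cre recombination of a floxed allele, and with DIDO3ΔCT+HADIDO3, in which cells with the older C-terminal deletion of the same exon carry HA-tagged DIDO3 again. Each group comprised 3 libraries. The reconstituted group therefore differs from WT in its parental line and in the transfected construct, which cannot be told apart from the reconstitution, and no library of unreconstituted DIDO3ΔCT cells was analysed here. The labels do not say whether libraries of a group came from separate cultures or clones, so the spread between them may be technical.

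Much of distal chromosome 14 is gene-poor, and long intervals without genes separate clusters of conserved genes. It carries Rb1, the retinoblastoma tumor suppressor that restrains entry into S phase, Klf5, a Krüppel-like factor that sustains ESC self-renewal, and the neighbours Zic2 and Zic5, zinc finger factors of early neural development. GENCODE listed 83 protein-coding genes in the first stretch, 46 in the second and 25 in the third, of which 64, 32 and 19 had a tested 3′ end.

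To place the borders on the genome, the 30 bases directly upstream of the most upstream RefSeq start (GRCm38.p6, the mm10 assembly) are shown for Mzt1, the first gene of the second stretch with at least 5 TPM (transcripts per 1000000), for Dnajc3 and Hs6st3, which lie on either side of its far border, and for Ipo5, the most abundant gene of the third stretch. Capitals mark each CG dinucleotide.
Mzt1, chr14:99046137-99046166, reverse strand: ggtgCGagCGcCGcCGCGCGgtgtgtgggc
Dnajc3, chr14:118937902-118937931, forward strand: CGccCGgggCGtggctcCGCGggcccCGcc
Hs6st3, chr14:119138235-119138264, forward strand: cCGgctctgccaacccCGgagtgCGgCGgg
Ipo5, chr14:120911164-120911193, forward strand: CGgtCGcCGCGctgggccCGcccccaaccc
The 250 bases upstream held 44 CG dinucleotides in Mzt1, 30 in Dnajc3, 36 in Hs6st3 and 42 in Ipo5. A comparison of promoters between stretches was void, because the RefSeq table held a start for only 54.7% of the tested genes of the first stretch and 78.1% of those of the second.

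Depth was 1.46 to 2.62 Gb of aligned bases in features per library. At the Dido1 locus, on chromosome 2, the change of DIDO3ΔE16 was as labelled. The most distal 3′ end had 13.7 to 17.9 TPM in the WT libraries and 0.307 to 0.546 in the DIDO3ΔE16 libraries. The reconstituted libraries had 10.9 to 12.1 TPM there, so this end does not by itself show their deletion. The stem cell markers Sox2 (386 to 485 TPM) and Tdgf1 (2081 to 2399.8 TPM) were abundant in every library. Other stem cell markers were less even. Zfp42 had 74.2 to 75.7 TPM in WT, 81.2 to 85.1 in DIDO3ΔE16 and 245 to 268 in the reconstituted line. Esrrb had 30.7, 1176 and 29.8 TPM in WT, 1289, 1258 and 1298 in DIDO3ΔE16 and 1947, 51.4 and 1729 in the reconstituted line. The fibroblast markers summed to 72.3 to 82.2 TPM in the WT libraries, 166 to 175 with DIDO3ΔE16 and 92.4 to 99.2 in the reconstituted line. In the reconstituted line Col3a1 and Twist2 were at 0 and Col1a1 was at 0.957 to 1.51 TPM, against 10.2 to 13.4 in WT. WT replicates 1 and 4 came from other flow cells than the remaining libraries. Some sites showed jumps between libraries of 1 group, such as Nanog, at 664 and 676 TPM in WT replicates 1 and 2-3 and 3.10 in replicate 4, and such sites in the region are named below.

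In DIDO3ΔCT+HADIDO3, RNA levels were shifted over whole neighbourhoods of genes. The second stretch was about doubled, the third was lowered, and the first was slightly raised, whereas all 3 stretches lay near the WT level in DIDO3ΔE16. The median log2 fold change of the reconstituted line against WT was 0.19 over 87 tested sites of the first stretch, 1.05 over 53 of the second and −0.69 over 27 of the third, or 1.14-fold, 2.07-fold and 0.622-fold. The corresponding medians of DIDO3ΔE16 were −0.07, −0.03 and −0.01, and the median over all tested sites of the genome was −0.01 in both comparisons. The plot of log2 fold changes along the region shows the steps.

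**Figure D1:**
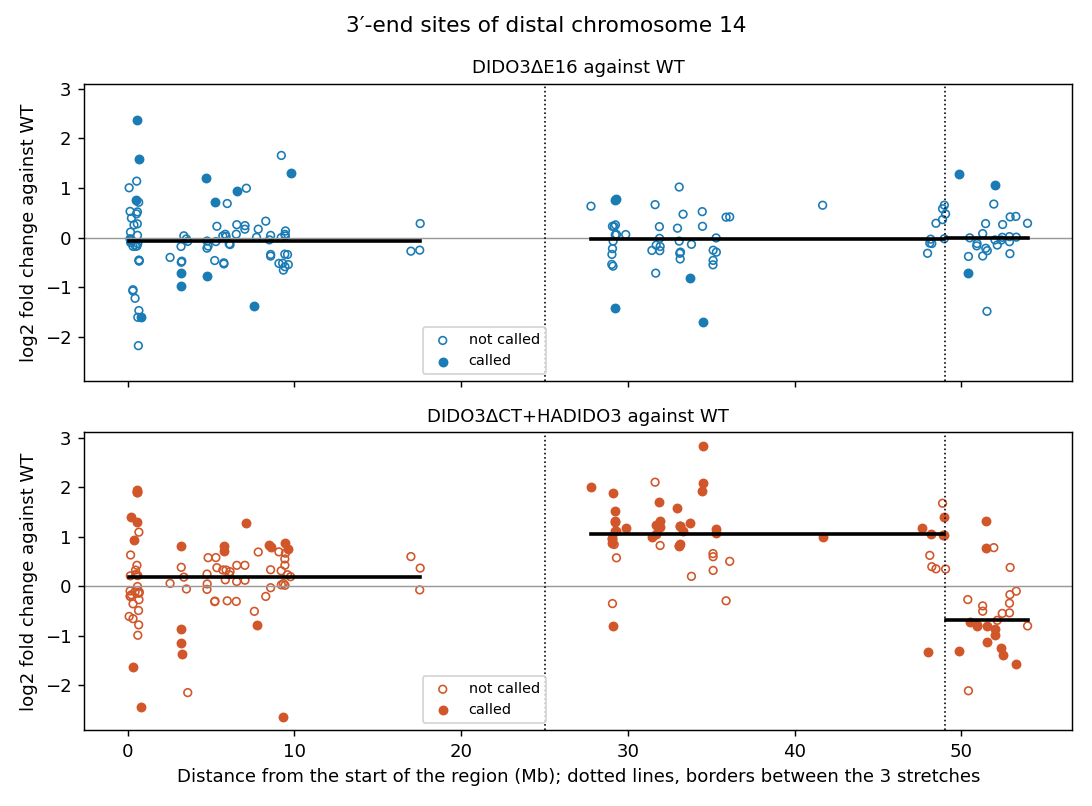
Log2 fold change against WT (y axis) of each tested 3′-end site by its distance in Mb from the start of the region (x axis), in DIDO3ΔE16 (top) and DIDO3ΔCT+HADIDO3 (bottom). Filled points were called, open points were not, black bars are the medians of the 3 stretches and dotted lines their borders; the reconstituted line steps from a median of 0.19 to 1.05 and then to −0.69, while DIDO3ΔE16 stays between −0.07 and −0.01.

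The shift was of like size in each library. For the second stretch, the median log2 level over the 52 sites above 0 in all libraries, relative to the WT mean, was 1.07, 1.04 and 1.13 in the 3 reconstituted libraries. It was 0.07, −0.04 and −0.03 in the WT libraries and −0.07, −0.05 and 0.01 in DIDO3ΔE16. For the third stretch (26 sites), the reconstituted libraries had −0.65, −0.62 and −0.55, and the other 6 libraries lay between −0.06 and 0.03. For the first stretch (87 sites) they had 0.23, 0.25 and 0.27, against −0.06 to 0.01 elsewhere. The reconstituted libraries did not overlap with WT in any of the 3 stretches. Summed over all sites, the WT libraries had 1390 ± 125 TPM in the second stretch (mean ± SD, n = 3), the DIDO3ΔE16 libraries 1441 ± 141 and the reconstituted ones 2591 ± 59.0. The third stretch summed to 1371 ± 6.04, 1278 ± 10.2 and 915 ± 4.85 TPM. The first summed to 3092 ± 105, 2853 ± 70.2 and 3588 ± 27.9 TPM.

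**Figure D2:**
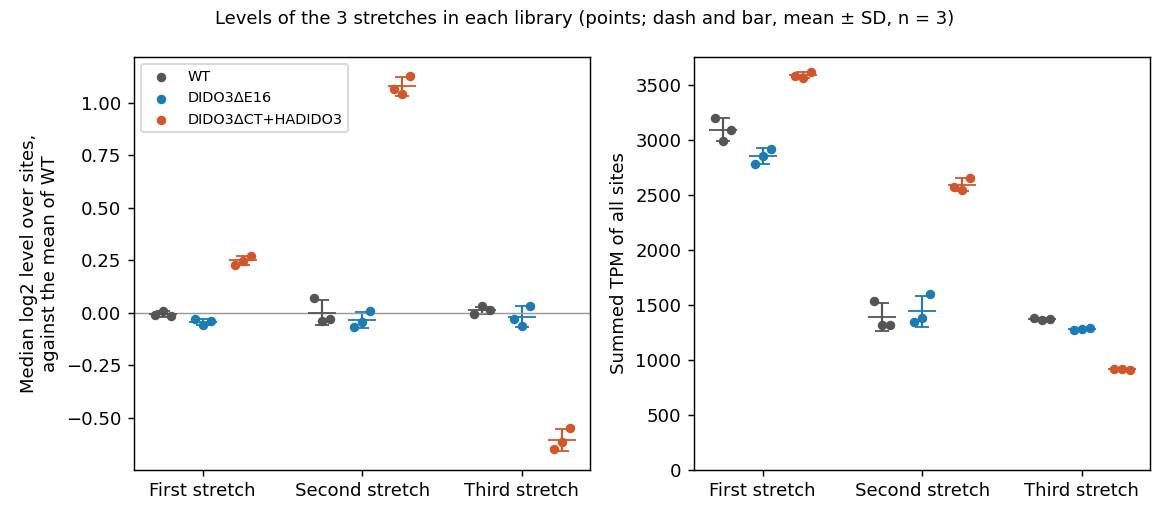
Left, median log2 level over the sites of each stretch relative to the WT mean; right, summed TPM of all sites of each stretch. Each point is 1 library, and dashes and bars are the mean ± SD of 3 libraries; in the second stretch the 3 reconstituted libraries sit at 1.04 to 1.13 on the log2 scale and at 2542 to 2656 TPM, above every WT and DIDO3ΔE16 library.

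Calls needed a log2 fold change of 0.7 or more in either direction and an adjusted p under 0.05 across every site tested in the genome (limma, Benjamini-Hochberg). In the reconstituted line against WT, 51 of 167 tested sites of the region were called higher and 20 lower, where 10.1% of all tested sites were called higher and 7.24% lower. The calls fell by stretch as 14 higher and 7 lower in the first, 35 higher and 2 lower in the second, and 2 higher and 11 lower in the third. Every reconstituted library lay above every WT library at 83 sites and below at 35, where 26.4% and 28.3% of all tested sites did so. In the second stretch, 43 of 53 sites were of the first kind and 3 of the other. In the third, 2 of 27 were of the first kind and 17 of the other.

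In DIDO3ΔE16 against WT, 11 of 167 tested sites were called higher and 9 lower, beside 10.2% and 4.94% of all tested sites. Every DIDO3ΔE16 library lay above every WT library at 31 sites and below at 50, beside 24.0% and 26.8% of all tested sites. In DIDO3ΔE16 against DIDO3ΔCT+HADIDO3, 20 of 172 tested sites were called higher and 52 lower, beside 13.9% and 13.4% of all tested sites. The comparisons share libraries, so their counts are not independent. The region was proposed with the contrasts against WT in view, and nothing is read from these counts.

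The second stretch begins, among sites of at least 5 TPM, with Mzt1, which encodes a small subunit of the γ-tubulin complexes that nucleate spindle microtubules. Mzt1 had 148, 137 and 135 TPM in the WT libraries, 96.3, 104 and 101 in DIDO3ΔE16 and 272, 278 and 319 in DIDO3ΔCT+HADIDO3. The reconstituted libraries were the highest and the DIDO3ΔE16 libraries the lowest, with log2 fold changes against WT of 0.95 ± 0.06 (SE) and −0.54 ± 0.04. Its neighbour Bora, an activator of Aurora A kinase in mitotic entry, had 59.1, 48.3 and 45.4 TPM in WT, 59.2, 62.0 and 64.7 in DIDO3ΔE16 and 101, 94.1 and 104 in the reconstituted line. The Bora site overlaps Dis3, a catalytic subunit of the RNA exosome, on the opposite strand. Dis3 was one of the few genes of the stretch that was not higher, at 24, 29.8 and 27.5 TPM in WT and 13.0, 33.9 and 26.7 in the reconstituted line, and the groups overlapped.

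The Krüppel-like factors of the stretch were both higher in the reconstituted line. Klf5 had 384, 342 and 344 TPM in WT, 377, 381 and 408 in DIDO3ΔE16 and 598, 555 and 558 in DIDO3ΔCT+HADIDO3. It was the most abundant site of the stretch, and its log2 fold change of 0.58 ± 0.06 stayed under the fold threshold although the reconstituted libraries did not overlap with WT. Klf12, which mainly represses transcription, had 15, 14.8 and 11.9 TPM in WT and 33.5, 32.4 and 34.7 in the reconstituted line, a log2 fold change of 1.17 ± 0.10. In DIDO3ΔE16 it had 15.8, 14.9 and 14.5 TPM, within the WT range or just above it.

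Ubiquitin marks proteins for degradation. Mycbp2, a large E3 ubiquitin ligase, had 26.5, 25.6 and 22.8 TPM in WT, 22.2, 19.6 and 22 in DIDO3ΔE16 and 62.0, 61.3 and 64.9 in the reconstituted line (log2 fold change 1.23 ± 0.06). Uchl3, a ubiquitin hydrolase, had 12.4, 11 and 11.3 TPM in WT and 25.1, 24.7 and 27.5 in the reconstituted line (1.05 ± 0.07). Both were higher in each reconstituted library than in any other. Rnf219, another E3 ligase, had the largest called shift of the second stretch among sites of at least 5 TPM in WT, with 6.87, 6.30 and 5.80 TPM in WT, 7.33, 7.04 and 8.97 in DIDO3ΔE16 and 27.9, 29.2 and 30.4 in the reconstituted line (2.09 ± 0.07). Kctd12, an auxiliary subunit of GABA-B receptors, rose from 10.6, 10.1 and 9.69 TPM to 31.2, 30.9 and 35.8 (1.57 ± 0.07). All of them were called higher.

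Pou4f1, a POU-domain factor of sensory neurons, had 6.17, 3.96 and 4.55 TPM in WT, 7.52, 7.11 and 7.18 in DIDO3ΔE16 and 18.7, 20.2 and 20.5 in DIDO3ΔCT+HADIDO3. Its log2 fold changes were 0.52 ± 0.17 and 1.92 ± 0.16, and both lines lay above WT in each library. Dach1, a transcriptional cofactor, was near the detection limit at 0.164 to 0.183 TPM in WT, 0.320 to 0.378 in DIDO3ΔE16 and 0.929 to 1.19 in the reconstituted line. Slain1, which promotes microtubule growth at plus ends, went in opposite directions in the lines. It had 13.2, 13.3 and 11.9 TPM in WT, 7.47, 7.20 and 8.0 in DIDO3ΔE16 and 31.2, 33.9 and 36.2 in the reconstituted line.

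At the far end of the stretch, Dnajc3, an endoplasmic reticulum co-chaperone that dampens the unfolded protein response, had 54.9, 49.7 and 49.4 TPM in WT, 51.7, 50.9 and 55.7 in DIDO3ΔE16 and 139, 145 and 151 in DIDO3ΔCT+HADIDO3. The WT and DIDO3ΔE16 libraries were intermingled and the reconstituted ones far above, with log2 fold changes of −0.02 ± 0.05 and 1.39 ± 0.05. Its 3′ end overlaps that of Uggt2, a glycoprotein folding sensor, on the opposite strand. Uggt2 had 7.93, 8.27 and 6.92 TPM in WT, 11.8, 13.8 and 12.6 in DIDO3ΔE16 and 16.4, 16.5 and 18.4 in the reconstituted line, so that both lines lay above WT there.

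Only 4 of the 53 tested sites of the second stretch lay below 0 in the reconstituted line. Apart from Dis3, these were Spry2, an inhibitor of receptor tyrosine kinase signalling, Gpc6, a glypican that binds growth factors at the cell surface, and 1 of 6 sites of Pibf1, a centrosomal protein gene. Spry2 had 81.1, 75.2 and 74.1 TPM in WT, 109, 105 and 107 in DIDO3ΔE16 and 68.6, 63.4 and 70.3 in the reconstituted line, with log2 fold changes of 0.41 ± 0.04 and −0.29 ± 0.05. The main Gpc6 site had 3.99, 4.85 and 5.53 TPM in WT and 1.91, 1.80 and 2.22 in the reconstituted line (−1.33 ± 0.17). The remaining 5 Pibf1 sites had log2 fold changes of 1.11 to 1.89. Among the 10 genes of the stretch with several tested sites, 8 had all of them above 0 and none had all of them below.

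A single library set the value of another gene of the stretch. Commd6, a copper metabolism domain protein gene, had 46.7, 5.25 and 48.8 TPM in WT and 103, 109 and 106 in the reconstituted line. Its log2 fold change of 2.10 ± 0.96 became 1.05 without WT replicate 2-3, and it was then called.

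**Figure D3:**
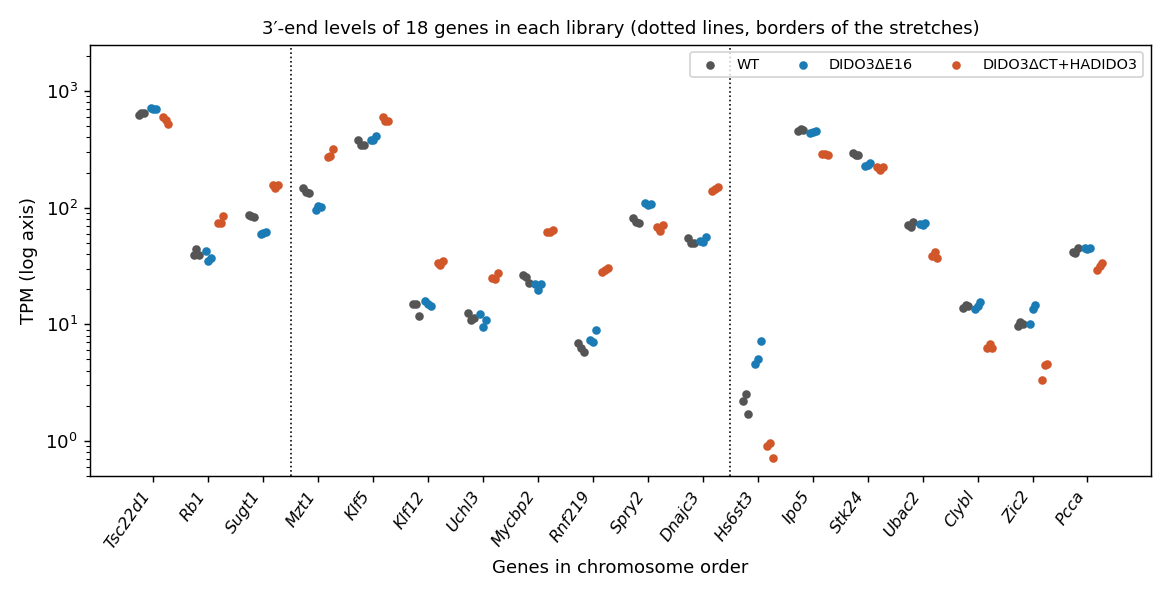
TPM (log axis) of 18 genes of the region in chromosome order, each point 1 library, with dotted lines at the borders between stretches. From Mzt1 to Dnajc3 the reconstituted libraries lie above WT except at Spry2, and from Hs6st3 to Pcca they lie below; Mzt1 has 272 to 319 TPM in the reconstituted line against 135 to 148 in WT, and Ipo5 281 to 291 against 458 to 469.

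In the third stretch the direction was turned. Ipo5, an importin that carries ribosomal proteins and histones into the nucleus, had 458, 469 and 461 TPM at its main 3′ end in WT, 434, 449 and 451 in DIDO3ΔE16 and 291, 287 and 281 in DIDO3ΔCT+HADIDO3. The reconstituted libraries lay far below both other groups, with a log2 fold change of −0.80 ± 0.04, against −0.12 ± 0.03 in DIDO3ΔE16. A shorter Ipo5 3′ end, at 104, 117 and 110.3 TPM in WT and 71.6, 69.8 and 66.3 in the reconstituted line, had −0.78 ± 0.07. Neither site was called without scaling between libraries.

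Ubac2, a membrane protein of endoplasmic reticulum-associated degradation, had 71.3, 68.8 and 74.7 TPM in WT, 72.0, 71.0 and 74.1 in DIDO3ΔE16 and 38.5, 41.7 and 37.4 in the reconstituted line (log2 fold change −0.97 ± 0.07). Clybl, a mitochondrial citramalyl-CoA lyase, had 13.9, 14.8 and 14.3 TPM in WT, 13.5, 14.4 and 15.5 in DIDO3ΔE16 and 6.27, 6.80 and 6.23 in the reconstituted line (−1.25 ± 0.07). For both genes DIDO3ΔE16 lay on the WT level. Zic2 had 9.67, 10.4 and 10 TPM in WT, 10.1, 13.4 and 14.8 in DIDO3ΔE16 and 3.31, 4.50 and 4.54 in the reconstituted line (−1.38 ± 0.14), and its neighbour Zic5 had 42.8, 43.6 and 41.1 TPM in WT and 31.5, 27.1 and 35.7 in the reconstituted line (−0.55 ± 0.10). Zic5 did not pass the fold threshold, but its reconstituted libraries did not overlap with WT.

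Stk24, a STE20-family kinase, was lower in both lines, at 296, 282 and 285 TPM in WT, 227, 230.2 and 240.3 in DIDO3ΔE16 and 221, 212 and 222 in the reconstituted line. Pcca, the α subunit of propionyl-CoA carboxylase, had 41.4, 40.8 and 45.3 TPM in WT, 45.3, 44.5 and 45.1 in DIDO3ΔE16 and 29.2, 31.8 and 33.4 in the reconstituted line. Tm9sf2, a Golgi and endosome membrane protein gene, had −0.69 ± 0.07 in the reconstituted line and Rap2a, a small GTPase, −0.73 ± 0.06. The 5 sites of the third stretch above 0 in the reconstituted line were 2 of the peptide transporter Slc15a1 and 1 each of Uggt2, Gpr183 and Tmtc4. The main Slc15a1 site had 5.25, 4.41 and 5.59 TPM in WT and 7.89, 8.99 and 11.5 in the reconstituted line. The others were under 2 TPM in every library. The Slc15a1 value of 0.77 ± 0.16 was no longer called without WT replicate 2-3 (0.67) or without replicate 2 (0.80) or 3 (0.64) of the reconstituted line.

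The values changed sign over a short interval near 119 Mb. On the near side, Dnajc3 (118978185 to 118983702) and the main Uggt2 site (118982985 to 118986890) had log2 fold changes of 1.39 and 1.04 in the reconstituted line. Just past the border, in the third stretch, an internal Uggt2 site (119057243 to 119061191), at 1.09 ± 0.301 TPM in WT, still had 0.35 ± 0.31. On the far side, Hs6st3 (119869595 to 119871815), a heparan sulfate sulfotransferase gene, had 2.18, 2.54 and 1.70 TPM in WT, 4.61, 5.06 and 7.18 in DIDO3ΔE16 and 0.903, 0.960 and 0.713 in the reconstituted line. Hs6st3 was the lowest in the reconstituted line and the highest in DIDO3ΔE16, with log2 fold changes of −1.31 ± 0.21 and 1.28 ± 0.23. Next came an Mbnl2 site (120389362 to 120395276) with 14.8, 13.6 and 13.5 TPM in WT, 8.72, 9.03 and 8.84 in DIDO3ΔE16 and 11.8, 11.6 and 14.2 in the reconstituted line. Mbnl2 encodes a regulator of alternative splicing. Its main 3′ end is split between overlapping sites whose TPM jumped between libraries of a group. That end is not described by itself, but it counts in the list of RNA and transcription machinery. The last site with at least 5 TPM, of Tmtc4, had 11.2, 8.07 and 10.4 TPM in WT and 8.58, 8.83 and 10.8 in the reconstituted line, which overlapped.

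At the other border, Diaph3, a formin of the cytoskeleton, and Tdrd3, a Tudor-domain protein that binds arginine-methylated histones and the RNA polymerase II tail, are the last sites of at least 5 TPM before Mzt1. Diaph3 had 5.98, 6.37 and 6.70 TPM in WT and 8.58, 10.7 and 12.2 in the reconstituted line (log2 fold change 0.60 ± 0.14). Tdrd3 had 10.3, 8.52 and 8.81 TPM in WT and 8.96, 8.52 and 10.8 in the reconstituted line (−0.07 ± 0.12). Mzt1, more than 10 Mb further on, had 0.95. At the start of the region, Rhobtb2 just outside had 26.1, 18.9 and 23.1 TPM in WT and 30.1, 31.9 and 33.6 in the reconstituted line (0.40 ± 0.12), and just inside Ccar2, a regulator of the deacetylase SIRT1, had 27.9, 20.9 and 25.2 TPM in WT and 23.6, 20.4 and 25.1 in the reconstituted line (−0.20 ± 0.13). Bin3, next to Ccar2, had −0.09 ± 0.08.

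The first stretch was mixed. Over its first 5 Mb the median of the reconstituted line was −0.05 (45 sites), and from 75 to 80 Mb it was 0.31 (39 sites). Rb1 had 39.5, 44.5 and 39.3 TPM in WT, 42.1, 34.6 and 37.3 in DIDO3ΔE16 and 73.5, 73.9 and 84.9 in DIDO3ΔCT+HADIDO3 (log2 fold change 0.81 ± 0.08). Sugt1, a co-chaperone needed for kinetochore assembly, had 86.5, 84.9 and 82.6 TPM in WT, 59.4, 60.4 and 62.0 in DIDO3ΔE16 and 155, 148 and 157 in the reconstituted line. It was lower in DIDO3ΔE16 (−0.55 ± 0.03) and higher in the reconstituted line (0.75 ± 0.03). Slc25a30, a mitochondrial carrier gene, had the same pattern with 119.6, 114 and 119 TPM in WT, 87.6, 86.9 and 84.0 in DIDO3ΔE16 and 199, 209 and 216 in the reconstituted line. Its call in the reconstituted line lay at the threshold, with a log2 fold change of 0.72 that became 0.70 and was lost without WT replicate 2-3. The general transcription factor gene Gtf2f2, the RNA methylation cofactor gene Zc3h13 and the Golgi tethering gene Cog3 had 0.33, 0.38 and 0.33, each with no overlap between the reconstituted and WT libraries.

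The largest shifts of the first stretch went in both directions. Hr, the hairless corepressor, had 7.0, 6.0 and 5.33 TPM in WT, 8.15, 8.09 and 6.97 in DIDO3ΔE16 and 23.7, 24.8 and 26.1 in the reconstituted line (log2 fold change 1.91 ± 0.10). Sorbs3, the adaptor vinexin, had 14.4, 14.2 and 18.2 TPM in WT and 43.5, 46.8 and 42.8 in the reconstituted line (1.41 ± 0.12). Dok2, an adaptor that damps kinase signalling, lies in the same 1-Mb neighbourhood and was lower in both lines, at 20.6, 22.1 and 17.4 TPM in WT, 7.36, 6.74 and 6.25 in DIDO3ΔE16 and 4.30, 3.92 and 3.52 in the reconstituted line. Rgcc, a regulator of the cell cycle induced by complement, had 13.9, 14.6 and 19.8 TPM in WT, 11.9, 10.3 and 12.7 in DIDO3ΔE16 and 2.80, 1.74 and 3.90 in the reconstituted line (−2.63 ± 0.32), the lowest value of the region. Tsc22d1, a TGF-β-induced gene and the most abundant site of the region, had 629, 650.4 and 654 TPM in WT, 715, 696 and 705 in DIDO3ΔE16 and 603, 561 and 521 in the reconstituted line (−0.30 ± 0.08). The zinc transporter gene Slc39a14 had 121, 128 and 117 TPM in WT, 47.4, 98.1 and 47.5 in DIDO3ΔE16 and 25.1, 54.0 and 56.2 in the reconstituted line. Its call in the reconstituted line (−1.63 ± 0.33) was lost without WT replicate 1, 2-3 or 4, with values of −1.64, −1.59 and −1.65.

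Calls in DIDO3ΔE16 were spread over the region. Serp2, a stress-associated endoplasmic reticulum protein gene, had 5.31, 5.46 and 6.28 TPM in WT, 11.1, 10.1 and 13.3 in DIDO3ΔE16 and 6.21, 7.28 and 6.13 in the reconstituted line (log2 fold change 0.94 ± 0.14 in DIDO3ΔE16). Bmp1, a procollagen C-proteinase, had 2.99, 3.31 and 3.86 TPM in WT, 6.15, 5.32 and 6.79 in DIDO3ΔE16 and 4.03, 4.05 and 4.83 in the reconstituted line. Its value of 0.76 ± 0.16 was no longer called without WT replicate 1 (0.67) or 2-3 (0.75) or without DIDO3ΔE16 replicate 1 (0.75) or 3 (0.69). Bmp1 is also made by fibroblasts, whose summed markers were highest in DIDO3ΔE16, although Thy1 and Pdgfrb were highest in the reconstituted line. The part of fibroblasts in this value was not tested. The 2 Lgi3 sites lay above WT in every library of both lines, and the downstream one had 0.221 to 0.320 TPM in WT, 1.69 to 2.25 in DIDO3ΔE16 and 1.07 to 1.82 in the reconstituted line.

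Other large values of DIDO3ΔE16 rested on single libraries. Polr3d, an RNA polymerase III subunit gene, had 70 and 67.8 TPM in DIDO3ΔE16 replicates 1 and 2 and 7.72 in replicate 3, against 72.8 to 77.8 in WT, and its log2 fold change of −1.23 ± 0.96 became −0.17 without replicate 3. Fgf17, a fibroblast growth factor of the early embryo, had 3.69, 3.72 and 26.1 TPM in DIDO3ΔE16 against 29.8 to 32.7 in WT. It was not called at −2.18 ± 0.84, and without DIDO3ΔE16 replicate 3 the value was −3.10 and was called. At Xpo7, a nuclear transport receptor gene, TPM jumped between overlapping sites within groups, at 279, 16.5 and 258 in the WT libraries at 1 of them, while a site that shares no bases with others had 129.9, 133 and 133 TPM in WT, 99.0, 102 and 101 in DIDO3ΔE16 and 117, 121 and 115 in the reconstituted line.

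Some sites lay on opposite sides of WT in the lines, whose contrasts share the WT libraries. The internal Rnf219 site had 1.66, 1.03 and 1.22 TPM in WT, 0.220, 0.333 and 0.499 in DIDO3ΔE16 and 9.93, 10.8 and 10.6 in the reconstituted line. Timm8a2, a mitochondrial translocase-like gene, had 1.47, 2.27 and 2.36 TPM in WT, 4.76, 4.48 and 4.17 in DIDO3ΔE16 and 1.2, 1.09 and 1.1 in the reconstituted line. Compared directly, DIDO3ΔE16 had a median log2 fold change against the reconstituted line of −0.33 over 92 sites of the first stretch, −1.11 over 54 of the second and 0.52 over 26 of the third.

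Genes of 1 role had different directions in different stretches. Over all genes, each taken at its most abundant tested site, 9.86% were called higher and 8.15% lower in the reconstituted line, and the list counts are given beside these shares. Of 16 genes for protein folding, traffic and ubiquitin, all tested, 7 were called higher in the reconstituted line and 1 lower, with a median log2 fold change of 0.82. All 7 lie in the second stretch, where the list's 10 genes were all above 0 with a median of 1.14, while its 2 genes of the third stretch, Ubac2 and Tm9sf2, had a median of −0.83. Of 9 developmental transcription factors, 4 were called higher and 1 lower, with medians of 1.17 over 5 genes of the second stretch and −0.96 over the 2 Zic genes of the third. Of 13 tested genes of the RNA and transcription machinery, 1 was called lower and the rest were not called, with a median of 0.30. This list includes the sites of Xpo7 (1.09 ± 1.22) and Mbnl2 (−2.11 ± 1.37) whose TPM jumped between libraries of a group. The called gene, Ipo5, is a transport receptor.

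Of 11 genes of cell cycle, chromosome and growth control, 4 were called higher and 1, Rgcc, lower, with a median of 0.23, and the higher ones were Rb1, Sugt1, Bora and Pibf1. Of 11 genes of mitochondria and metabolism, 2 were called higher and 2 lower, with a median of −0.06, and none of them lies in the second stretch. This list includes Sucla2 (−2.14 ± 2.34), whose TPM jumped between libraries of a group. Of 18 genes for ligands, receptors, adhesion and neural surface proteins, 9 were tested, and 1 was called higher and 3 lower. In DIDO3ΔE16, at their most abundant site tested in both lines, Bmp1 and the protocadherin gene Pcdh8 were called higher and no list gene was called lower, beside 11.0% and 4.57% of all genes. Other sites of list genes were called too, among them Htr2a, which was not tested in the reconstituted line, higher, and the Mbnl2 site that starts at 120389362 (−0.71 ± 0.06) lower. The Pcdh8 call (1.3 ± 0.27) was lost without WT replicate 2-3 (1.25) or DIDO3ΔE16 replicate 1 (1.16). The median over all 14699 genes tested was −0.05 in the reconstituted line and −0.01 in DIDO3ΔE16.

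The shift of the second stretch was seen at high and low levels and on both strands. Its median log2 fold change in the reconstituted line was 1.18 over 7 sites under 1 TPM in WT, 1.13 over 22 sites of 1 to 10 TPM, 1.05 over 15 of 10 to 50 TPM and 0.66 over 9 of at least 50 TPM. Over all tested sites of the genome the medians in these classes ran from 0.32 at the lowest level to −0.175 at the highest. The forward strand had 1.11 and the reverse strand 0.996. In the third stretch all 14 sites of at least 10 TPM in WT lay below 0, with medians of −0.67 from 10 to 50 TPM and −0.75 above, whereas the 6 sites under 1 TPM had 0.14. All 13 tested forward-strand sites of the third stretch lay below 0, with a median of −0.80, and 9 of 14 reverse-strand sites did, with −0.25.

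Set against the rest of the genome, the second and the third stretch stood at the ends of the range in the reconstituted line. Of 240 bins of 10 Mb with at least 20 tested sites, the bin from 100 to 110 Mb of chromosome 14 had the highest median log2 fold change (1.11 over 27 sites) and the bin from 120 Mb had the lowest (−0.69 over 25 sites). The next bins lay well inside, at 0.57 on chromosome 1 (190 to 200 Mb) and −0.32 on chromosome 15 (10 to 20 Mb). The bin from 70 to 80 Mb, with 0.19, ranked 22 from the top. In DIDO3ΔE16 the same bins had −0.15, −0.05 and −0.07, and ranked 219, 152 and 163 from the top of 242. Chromosome 14 before 70 Mb had medians of −0.09 in the reconstituted line and −0.02 in DIDO3ΔE16. Its first 10 Mb, with 0.445 over 49 sites, and the next 10 Mb, with 0.352 over 23 sites, also had medians above 0 in the reconstituted line. In the reconstituted line chromosome 1 had a median of 0.29, while the other autosomes lay between −0.085 and 0.035. These ranks describe the bins and carry no test.

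**Figure D4:**
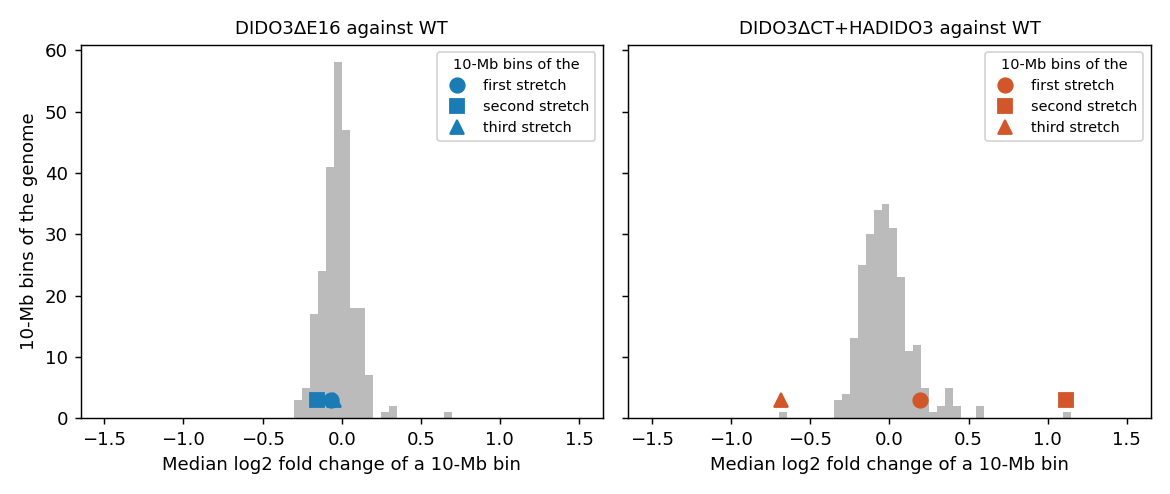
Histogram of the median log2 fold change against WT of 10-Mb bins of the genome with at least 20 tested sites, with symbols at the 3 bins of the region, in DIDO3ΔE16 (left) and DIDO3ΔCT+HADIDO3 (right). In the reconstituted line the bin of the second stretch sits at 1.11 and that of the third at −0.69, both apart from the other bins; in DIDO3ΔE16 all 3 lie between −0.15 and −0.05.

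The fibroblast markers moved in both directions in the reconstituted line. Col1a1 and Col1a2 were lower in the reconstituted line than in WT, whereas Thy1 had 52.2 to 56.1 TPM against 18.1 to 19.7 and Pdgfrb 38.5 to 41.8 against 4.99 to 5.28. The part of other cells in the shifts was not tested. With WT replicate 2-3 alone, the WT library from the flow cells of the other groups, the medians of the reconstituted line were 0.20, 1.09 and −0.64 and those of DIDO3ΔE16 −0.06, −0.03 and −0.06. In bulk samples, fewer cells with a gene active and less RNA per cell cannot be told apart.

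Of the 225 sites, 58 were not tested in each comparison with WT because a library was at 0, and 14 were at 0 in all libraries. These include neuronal and sensory genes such as Slitrk1, Pcdh17 and Gfra2, all under 0.5 TPM. Htr2a, a serotonin receptor gene, had 0.642 to 0.8 TPM in WT and 1.37 to 2.26 in DIDO3ΔE16 and was listed at 0 in all 3 reconstituted libraries. Cysltr2, a leukotriene receptor gene, was listed at 0 in WT and DIDO3ΔE16 and had 0.517 to 0.776 TPM in the reconstituted line. Pcdh9, a protocadherin gene, had at most 0.0690 TPM in WT, 0.109 to 0.188 in DIDO3ΔE16 and 0.595 to 0.962 in the reconstituted line. Sucla2, a subunit of succinyl-CoA synthetase, lies on 2 overlapping sites between which TPM jumped within groups. It is not described by itself, but it counts in the list of mitochondria and metabolism.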

How the data were processed

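RNA-seq of ESC was measured in 9 libraries, 3 per group. The labels give WT replicates 2 and 3 the same library, which was counted once. The authors aligned reads to mm10 (BWA 0.7.15) and ran StringTie (1.3.3) on 3′ untranslated regions with 2 kb added; per the file headers no strand option was set. The deposited TPM values are not scaled between libraries, and no read counts were used, so limma took the place of edgeR, which the authors used. Mean coverage served for depth only. TPM was summed per site, sites above 0 in each library of a comparison were kept (21063, 20879 and 21172 tested), libraries were brought to a common scale with the mean of their log2 ratios after trimming 30% at each end, and log2(TPM + 0.1) was fitted with limma (3.58.1, trend and robust, R 4.3.3). Fold changes are on that scale and understate low genes. Symbols came from GENCODE. The fit was tested on simulated data. The members and gene lists were chosen with earlier results of these data known. Named genes were list genes of at least 1 TPM, the 3 highest and lowest changes per stretch among sites of at least 5 TPM sharing no strand bases, border sites and the 3 most abundant sites; Cysltr2, Pcdh9, Htr2a, Gpr183, Slitrk1, Pcdh17, Gfra2, Lgi3, Timm8a2, Rap2a and the internal Rnf219 and Uggt2 sites were added after their values were seen. Alternatives were the pseudocount, filter, scaling, summing, samples fitted, replicate block, flow cell and left-out libraries. Some genes of the region are not reported here by name.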

Additional observations from a re-analysis of the deposited data

Results flagged for a closer look

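Over the first stretch of the region (70 to 95 Mb), every DIDO3ΔE16 library lay below all WT libraries in its median log2 level. Every DIDO3ΔCT+HADIDO3 library lay above them. The means were −0.042 and 0.249 relative to WT, and the difference between the lines was not tested. Over all sites of the genome the DIDO3ΔE16 libraries also lay below every WT library, at −0.013 to −0.007 against 0.002 to 0.007. Slain1 was lower in every DIDO3ΔE16 library (log2 fold change −0.82) and higher in every reconstituted library (1.28) than in any WT library. Hs6st3 went the other way, with 1.28 in DIDO3ΔE16 and −1.31 in the reconstituted line. Both contrasts share the WT libraries. Compared directly, DIDO3ΔE16 differed from the reconstituted line by −2.12 at Slain1 and 2.57 at Hs6st3, and both were called (limma), although these sites were picked for their opposite directions.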

How the results depend on the processing

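Among the 83 sites named by the rule, no called fold change of the reconstituted line changed sign under the alternatives fitted per site. Other called sites were not followed. No stretch median of the reconstituted line changed sign under the alternatives run. The DIDO3ΔE16 medians of the second and of the third stretch, near 0, did so without scaling. That of the third also did so at sites sharing no base (0.002) and without DIDO3ΔE16 replicate 2 (0.027). In DIDO3ΔE16 against WT, 20 sites of the region were called, and 10 with a pseudocount of 1, 13 with at least 1 TPM in every library, 12 with TPM summed per gene, 7 with WT replicate 2-3 as the only WT library and 13 to 19 with single libraries left out (13 without WT replicate 2-3). The median of the first stretch in DIDO3ΔE16 (−0.067) became −0.053 with a pseudocount of 1, −0.050 with at least 1 TPM in every library, −0.004 without scaling, −0.042 per gene, −0.024 at sites sharing no base and −0.070 to −0.040 with single libraries left out. That of the second (−0.027) became 0.036 without scaling and −0.087 to −0.016 with libraries left out, and that of the third (−0.005) 0.050 without scaling and −0.060 against WT replicate 2-3 alone. In DIDO3ΔCT+HADIDO3 against WT, the first median (0.195) became 0.131 with a pseudocount of 1, 0.244 with a group mean of at least 1 TPM, 0.267 with at least 1 TPM in every library, 0.289 without scaling and 0.233 at sites sharing no base. The second (1.049) became 0.890 with a pseudocount of 1, 1.152 without scaling and 1.044 to 1.124 with libraries left out. The third (−0.686) became −0.522 with a pseudocount of 1, −0.583 without scaling, −0.619 at sites sharing no base, −0.607 in 1 fit of all libraries and −0.733 to −0.586 with libraries left out. In DIDO3ΔE16 against DIDO3ΔCT+HADIDO3, a pseudocount of 1 gave −0.263 and −0.943 in the first and second stretch, each feature apart −0.278 and −0.961, and in the second a group mean of at least 1 TPM −1.166 and sums per gene −0.970. Leaving out libraries gave −0.341 to −0.303, −1.148 to −1.045 and 0.462 to 0.557 in the 3 stretches. The cause of these moves was not tested. With the replicate number as a block, limma called 0 sites of the region in either line against WT, with 41 and 92 at an unadjusted p under 0.05, and 66 between the lines (72 without the block). WT replicate 4 and replicate 3 of each line have no partner of the same number in the fits against WT. Those fits therefore had little power, and nothing is read from their 0 calls. Deviations of libraries with the same number correlated at only 0.004 to 0.037, so the samples share only a number.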
